A study of Mus musculus with 4 samples.

Results

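Cluster 11 of the authors' graph clustering held 837 of the 12979 cells in the library from IL-12 plasmid-treated tumours and 19 of the 4232 cells in the library from control plasmid-treated tumours, or 856 of 17211 cells in all. Its members were taken by the cluster number in the deposited tables, and the authors' class column called all 837 IL-12 members DCs (dendritic cells). The question addressed here was whether the transcripts of these cells carried that name, and how they compared with the macrophage, T cell and other clusters of the same library.

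The cells were live CD45+ leukocytes sorted from mouse breast tumours that had received plasmid by intratumoral injection and electroporation. The IL-12 group received the IL-12 plasmid and the control group received the control plasmid, with 3 mice pooled per group, and each pool gave 1 library for gene expression and another for T cell receptors. The sources do not give 1 tumour model. The series design names triple-negative breast cancer (TNBC), the growth protocol describes HER2 induction in the mammary tissue of mice aged 1 month, and the library names inside the tables begin with 4T1, a mouse mammary carcinoma line. The table of the control library names its treatment Isotype, whereas the sample labels give control plasmid. IL-12 is a cytokine of antigen-presenting cells that drives interferon-gamma production by T and NK cells.

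Dendritic cells sample antigen and present it to T cells on MHC class II. Conventional dendritic cells develop under the growth factor receptor Flt3 and the transcription factor Zbtb46, and those that have matured and migrate carry the chemokine receptor Ccr7 and the actin-bundling protein Fscn1. Macrophages share the MHC class II genes but are marked by complement C1q, Apoe and Adgre1, while T cells carry the CD3 chains of the receptor complex and neutrophils carry very large amounts of S100a8 and S100a9.

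The IL-12 library held 59956933 unique molecular identifiers (UMIs, each counting 1 captured transcript) and the control library 17306854, with a median of 3418 UMIs per cell in the IL-12 library and 3021 in the control library. With 1 pooled library per treatment there was no replicate of either group. Other clusters are named by the authors' most frequent class. Intervals below are exact 95% intervals that cover counting error only, and a cluster set against the rest of its library is a description, since every gene could shape the clustering. A total of 87 cell barcodes occurred in both libraries, and all 87 carried the same cluster number in both tables. Among these 87 barcodes, 77 of the IL-12 cells and 42 of the control cells had the most frequent class of their cluster, whereas 99.8% of the IL-12 cells and 99.9% of the control cells with an unshared barcode did. Of the 19 control members, 5 shared their barcode with an IL-12 member, and none of those 5 was called a DC in the control table (2 CD8 T cells, 2 neutrophils and 1 macrophage). The other 14 control members were all called DCs.

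Cluster 11 made up 6.45% of the IL-12 cells (6.03 to 6.89%) and 0.449% of the control cells (0.271 to 0.700%). Without the shared barcodes the shares were 6.45% of IL-12 cells and 0.338% of control cells. Of the 842 cells called DCs in the IL-12 library, 837 lay in cluster 11 and 5 lay in other clusters. Among cells not called neutrophils, the cluster's share was 11.8% in the IL-12 library and 1.13% in the control library. The difference in share between the libraries was not tested, since each treatment had 1 library and a difference between libraries cannot be told apart from one between treatments.

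The genes that define dendritic cells were at about the level found over the rest of the library, cluster 13 included. The list of 10 defining genes (Flt3, Zbtb46, Xcr1, Clec9a, Cd209a, Ccr7, Fscn1, Cacnb3, Dpp4 and Wdfy4) summed to 141 CPM (UMIs per 1000000 UMIs of the same cells) in cluster 11, against 137 CPM in all other IL-12 cells. The highest level of that list was in cluster 13, at 1731 CPM. Cluster 13 is among those other cells and raised their level. The authors' most frequent class in cluster 13 was B cells, and its B cell list stood at 2076 CPM beside these dendritic cell genes. By the summed list, cluster 11 ranked 3rd of 14 clusters, although at a far lower level than cluster 13. The CD4 T cell cluster 9 was also above it, where Ccr7 alone was at 208 CPM. At an equal depth of 1000 UMIs per cell, a UMI from the list was found in 12.6% of cluster 11 cells. The share was 38.3% in cluster 13 and 5.71% in all other IL-12 cells, a wider gap to the latter than in the summed level. Cluster 11 was not set apart from every other cluster, with 16.7% in cluster 4 (24 cells), 14.9% in the T cell cluster 8 (67 cells) and 12.6% in cluster 9. The remaining clusters had at most 8.04%, in cluster 5.

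Single defining genes differed in their relation to the rest of the library, and 9 of the 10 were higher in cluster 13 than in cluster 11. Flt3, the receptor for the growth factor of dendritic cell development, had 6 UMIs in 6 of the 837 members (0.717%, 0.264 to 1.55%), against 14.6% of cluster 13 cells, 0.681% of cells in the macrophage cluster 6 and 0.0384% of cells in the neutrophil cluster 3. The median depth behind these shares was 1859 UMIs in cluster 11, 6307 in cluster 13, 9333 in cluster 6 and 2313 in cluster 3. As a level, Flt3 was at 3.75 CPM in cluster 11, 33.2 CPM in cluster 13, 0.997 CPM in cluster 6 and 1.37 CPM in all other IL-12 cells. Zbtb46 was at 2.499 CPM in cluster 11 and 13.8 CPM in cluster 13. The cross-presenting dendritic cell genes Xcr1 and Clec9a were at 8.12 and 1.87 CPM in cluster 11, against 40.3 and 32.6 CPM in cluster 13. Cd209a had no UMI in any of the 837 members (0 to 0.440%). This interval does not limit the share of cells that express the gene at this depth. Fscn1 was at 6.25 CPM in cluster 11 and 308 CPM in cluster 13. Cacnb3, a calcium channel subunit, was at 8.12 CPM in cluster 11 (13 UMIs), 53.6 CPM in cluster 13 and 3.29 CPM in all other IL-12 cells. Wdfy4, a gene needed for cross-presentation, was at 10.6 CPM in cluster 11 (17 UMIs), 71.3 CPM in cluster 13 and 6.82 CPM in the others. For both genes cluster 11 ranked 2nd of 14. Dpp4, a surface peptidase also found on T cells, was at 24.4 CPM in cluster 11 and 24.3 CPM in cluster 13, with 42.3 CPM in the CD8 T cell cluster 5. The 7 genes of the plasmacytoid dendritic cell list summed to 409 CPM in cluster 11 and 389 CPM in the other cells (rank 4 of 14), against 1919 CPM in cluster 13. Most of that sum in cluster 11 was Bst2, at 282 CPM. Bst2 was found in every cluster, from 66.2 CPM in cluster 14 to 1160 CPM in cluster 13, with 415 CPM in cluster 6 and 260 CPM in cluster 5. Within that list Siglech was at 1.25 CPM in cluster 11 and 199 CPM in cluster 13, whereas Runx2, a transcription factor also expressed in other lineages, was at 88.7 CPM in cluster 11 and 17.1 CPM in cluster 13.

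Ccr7 was the only one of the 10 defining genes with enough detection to be compared (a UMI in 10% or more of the members or of the other cells). It was at 74.96 CPM in cluster 11, 79.9 CPM in all other cells and 1119 CPM in cluster 13. Ccr7 was not particular to dendritic cells in this library. It was at 208 CPM in the CD4 T cell cluster 9, 52.4 CPM in cluster 5 and 51.9 CPM in cluster 12. The macrophage cluster 6 had 71.0 CPM, and the neutrophil clusters 2 and 3 had 3.61 and 4.49 CPM. Itgax, the integrin CD11c, was at 36.2 CPM in cluster 11, close to 33.7 CPM in cluster 13 and 37.7 CPM in cluster 6. The antigen presentation genes were present in most members but at lower levels than in cluster 13 or cluster 6. H2-Ab1, a chain of MHC class II, was at 922 CPM in cluster 11, against 3427 CPM in cluster 13 and 3733 CPM in cluster 6. Cd74, the MHC class II chaperone, was at 3462 CPM in cluster 11, against 16793 CPM in cluster 13 and 16378 CPM in cluster 6. Of the 27 genes on the wider dendritic cell list, 10 were compared and none was at least 2-fold higher or lower than in the other IL-12 cells (on the log2(CPM + 10) scale, as for every 2-fold count and log2 ratio here), where 1.63% of all genes compared were higher and 0.662% lower. The defining list as a whole was far below cluster 13, which went against the class name. It was near the level of the rest of the library with cluster 13 included, and above most single clusters. The cells are called cluster 11 below.

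**Figure D1:**
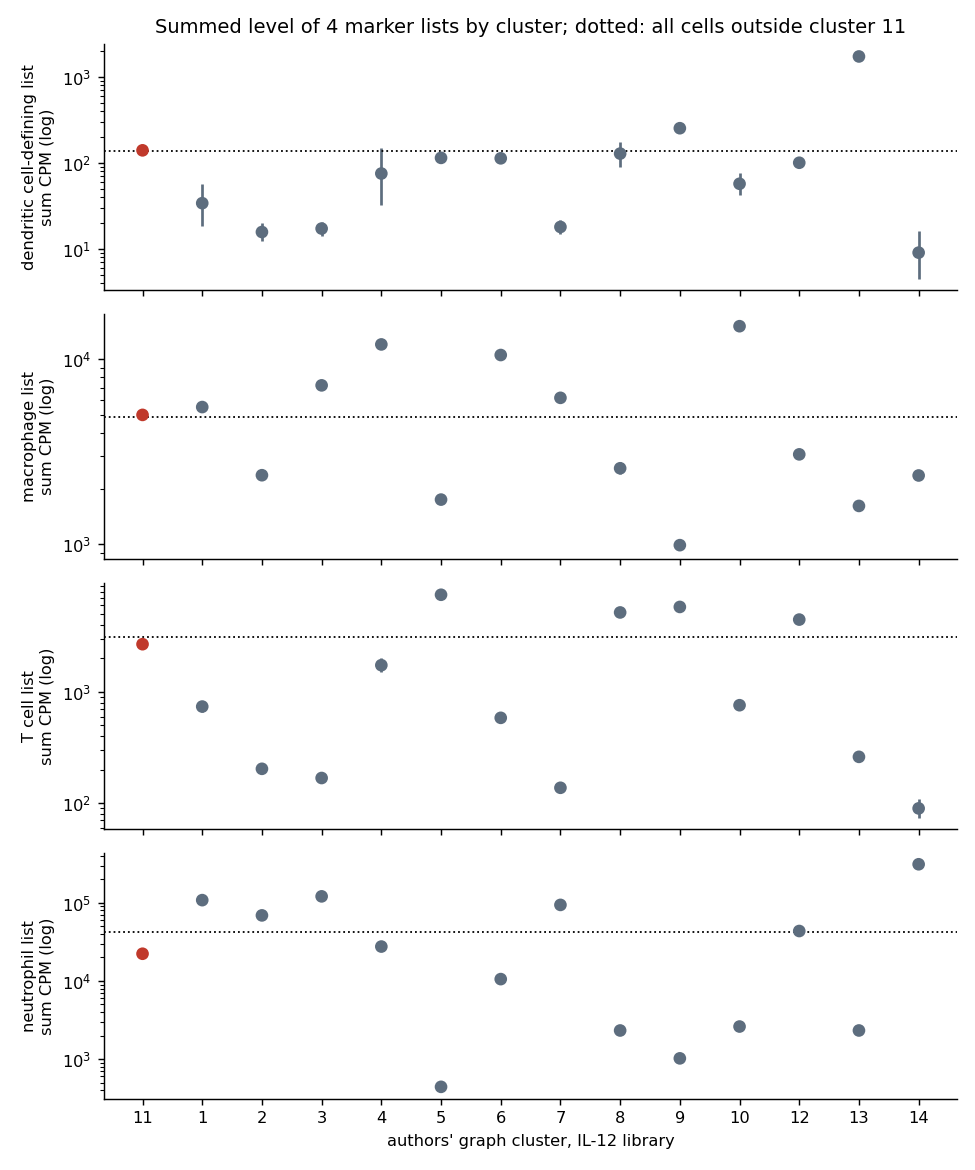
Summed level of 4 marker lists (CPM, log axes) in the 14 clusters of the IL-12 library, cluster 11 in red at the left, with exact counting intervals; the dotted line is the level in all cells outside cluster 11. Cluster 11 sits near that line for the dendritic cell-defining list (141 CPM), the macrophage list (5013 CPM) and the T cell list (2687 CPM), and below it for the neutrophil list (22300 CPM).

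The macrophage and T cell lists were near the level of the rest of the library too. The 16 macrophage genes summed to 5013 CPM in cluster 11 and 4907 CPM in all other IL-12 cells. The macrophage list was highest in cluster 10, at 15118 CPM, and was not specific to macrophage clusters in this library. It stood at 7240 CPM in the neutrophil cluster 3, 6198 CPM in the neutrophil cluster 7 and 5526 CPM in the neutrophil cluster 1, all above cluster 11. The T cell list summed to 2687 CPM in cluster 11 and 3095 CPM in the other cells, and its highest level was 7484 CPM in cluster 5, the main CD8 T cell cluster. The neutrophil list was lower, at 22300 CPM in cluster 11 and 42827 CPM in the other cells.

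Single genes of each list lay on both sides of the list's own ratio. Of 13 T cell genes compared, the ratio of cluster 11 to the other cells ran from 0.642 for Cd247, the zeta chain, to 1.56 for Bcl11b, a T lineage transcription factor, with a median of 0.864. Of 10 macrophage genes compared, it ran from 0.717 for Cd68, a lysosomal glycoprotein, to 1.73 for Csf1r, the CSF1 receptor, with a median of 1.22. Of 11 neutrophil genes compared, it ran from 0.371 for Retnlg to 0.840 for Mmp9, a secreted protease, with a median of 0.599. None of the T cell, macrophage or monocyte genes compared was past 2-fold, and 2 of the 11 neutrophil genes, Retnlg and S100a8, were at least 2-fold lower. With 1.63% higher and 0.662% lower among all genes compared, a count of 0 in lists of this size is near the share over all genes. Red cell genes were at 4.37 CPM in cluster 11 (7 UMIs), rank 4 of 14, and the 229 CPM of the other cells was carried by cluster 10, at 13444 CPM.

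UMIs of different lineages were found in the same cells. Cd3e, a CD3 chain of T cells, had a UMI in 49.9% of members (46.5 to 53.4%), Apoe in 75.03% (72.0 to 77.9%), S100a9 in 98.2% (97.1 to 99.0%) and H2-Ab1 in 72.0% (68.9 to 75.1%). To compare cells at equal depth, 1000 UMIs were drawn from every cell that had them, leaving out 106 members and 363 other cells. At that depth Cd3e had a UMI in 33.4% of cluster 11 cells, against 67.1% in the CD8 T cell cluster 5, 6.91% in the macrophage cluster 6 and 3.33% in the neutrophil cluster 3. Apoe had a UMI in 63.2% of cluster 11 cells, against 71.3% in cluster 6, 10.9% in cluster 5 and 13.7% in cluster 3. S100a9 had a UMI in 96.4% of cluster 11 cells, against 98.1% in cluster 3, 41.0% in cluster 6 and 14.1% in cluster 5. Each of these 3 genes was thus seen in cluster 11 more often than in the named clusters of another lineage, whose shares serve as the background.

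At equal depth such co-detection was more frequent in cluster 11 than in each other cluster. At 1000 UMIs, 83.6% of its cells (80.7 to 86.2%) had a UMI from each of the T cell, macrophage and neutrophil lists, against 17.2% of all other cells. Cluster 12, which the authors called CD8 T cells, had the next highest share, at 69.3%, and no further cluster exceeded 35.8%. At full depth the order of these 2 clusters was reversed, with 92.6% in cluster 11 and 95.6% in cluster 12, at median depths of 1859 UMIs in cluster 11 and 8039 UMIs in cluster 12. A UMI from the macrophage list alone did not mark a macrophage. At 1000 UMIs it was found in 95.5% of cluster 11 cells, 94.5% of the macrophage cluster 6, 83.7% of the neutrophil cluster 7, 72.6% of the neutrophil cluster 3 and 50% of the CD8 T cell cluster 5. Cd3e, Apoe and S100a9 were found together in 18.5% of cluster 11 cells (15.7 to 21.5%), against 8.22% of cluster 12 cells and at most 2.07% of the cells of any other cluster. At full depth these 3 genes were together in 36.9% of cluster 11 cells and 46.0% of cluster 12 cells. No doublet caller was run on these tables, and the labels name none, so the part of droplets holding more than 1 cell, or of free RNA, in these shares was not tested.

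**Figure D2:**
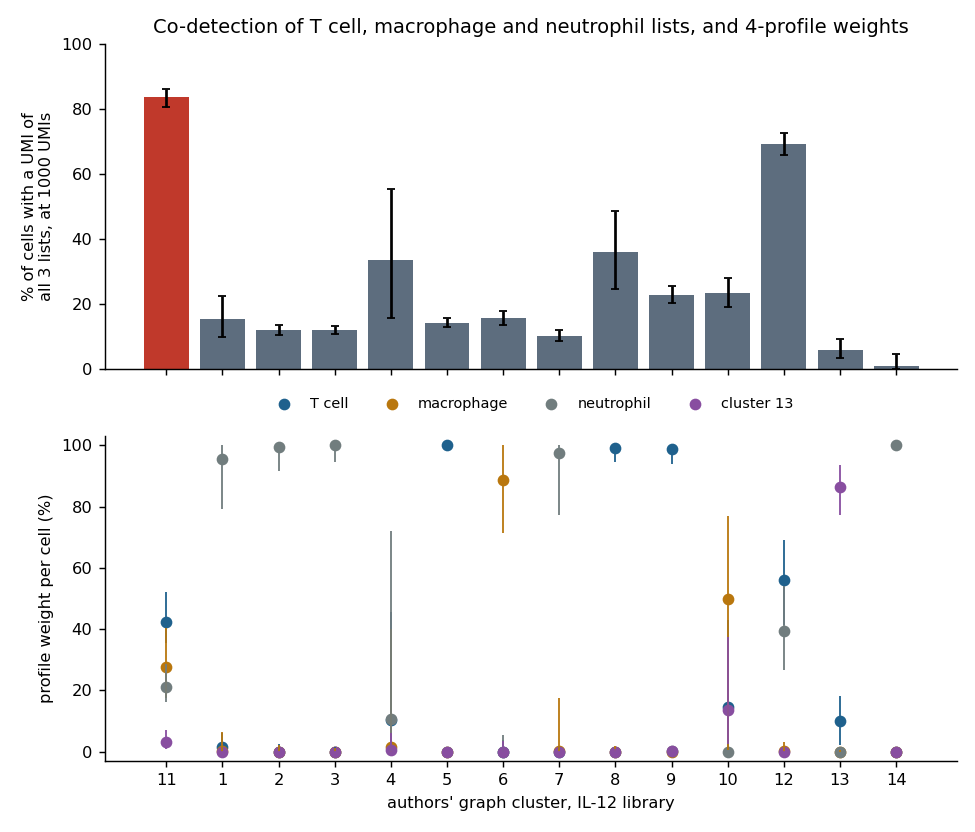
Upper panel, share of cells (%, at 1000 UMIs per cell) with a UMI from each of the T cell, macrophage and neutrophil lists, with exact binomial intervals; lower panel, weight of 4 profiles in each cell (%, median and quartiles), both by cluster of the IL-12 library. Cluster 11, in red at the left of the upper panel, has the highest share (83.6%) and median T cell, macrophage and neutrophil weights of 42.2%, 27.5% and 21.2%. No profile was made from cluster 11 or cluster 12.

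Each cell was then described as a weighted sum of 4 profiles, made from neutrophil, macrophage and T cell clusters and from cluster 13. No profile was made from cluster 11 or cluster 12, whereas clusters 5 and 6 each helped to build one. Mixed weights were thus favoured in clusters 11 and 12, and the contrast with clusters 5 and 6 was partly set by this choice. The median member had 42.2% T cell (quartiles 35.4 and 52.1%), 27.5% macrophage (17.6 and 40.2%), 21.2% neutrophil (16.2 and 28.7%) and 3.07% cluster 13 weight. A single profile reached 80% in 17 of the 837 members (2.03%), whereas it did so in 98.6% of the cells examined in cluster 5 and 63.6% of those in cluster 6. The T cell, macrophage and neutrophil weights were all at least 10% in 591 members (70.6%), against 8.12% of cluster 12 cells and at most 3.80% of cells in each other cluster with more than 12 cells examined. The summed profile of cluster 11 had weights of 42.3% T cell, 30.1% macrophage, 22.9% neutrophil and 4.62% cluster 13. The summed profile of the other cells not used to build the profiles had 34.7%, 22.1%, 40.9% and 2.35% in the same order. Cluster 12, the nearest to cluster 11 in co-detection, had median weights of 56.1% T cell, 39.5% neutrophil and 0.037% macrophage. With the members in 4 groups by depth, shallow to deep, all 3 weights reached 10% in 66.2%, 61.2%, 77.6% and 77.4% of cells. The median macrophage weight in the same groups was 18.9%, 34.4%, 35.6% and 26.3%, so it was highest at the middle depths.

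The summed profile of cluster 11 lay closer to the average of the library than to any one cluster. Over 8302 genes, its Pearson correlation on the log2(CPM + 10) scale was 0.966 with the sum of all other IL-12 cells and 0.960 with the equally weighted mean of the other clusters. With single clusters it was 0.951 for cluster 12, 0.923 for the macrophage cluster 6, 0.893 for the macrophage cluster 10, 0.810 for cluster 13 and 0.776 for the neutrophil cluster 14. Nearness to the average was not particular to cluster 11. Each cluster was also correlated with the sum of its own other cells, over genes at 10 CPM or more in either. That value was 0.957 for cluster 11, 0.971 for cluster 12 and 0.673 to 0.885 for the other 12 clusters. These correlations run across genes of 1 library and describe likeness only.

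Taken cell by cell, 583 members (69.7%, 66.4 to 72.8%) were most likely under the profile of cluster 12, 140 (16.7%) under cluster 6, 67 under cluster 10 and 1 under cluster 13. The same procedure returned 74.1% of 6070 held-out cells to their own cluster. The average profile of all other cells was then offered beside the single clusters. It was the most likely for 569 members (68.0%, 64.7 to 71.1%), 3.26% of held-out other cells and 14.3% of held-out cluster 12 cells. The held-out cells were offered the profile of their own cluster, whereas the members were not. This favoured the average profile among the members, so these shares cannot show whether members lay nearer the average than held-out cells did. With profiles from the control library the average profile was the most likely for 34.6% of members.

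The members were shallow but broad. The median was 1859 UMIs and 733 genes in cluster 11, against 3653 UMIs and 905 genes in the other IL-12 cells, and among the clusters the median depth was lower only in cluster 10, at 1246 UMIs. At 1000 UMIs the median was 451 genes in cluster 11 and 379 genes in the other cells, and of the clusters only cluster 8 had more, at 466. The 10 most abundant genes took 18.4% of the UMIs of the table in the median member and 25.9% in the median other cell. UMIs of genes outside the table made up 31.7% in the median member and 24.6% in the median other cell.

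Mitochondrial transcripts were about 2% of the UMIs. The median share was 2.13% in cluster 11 (quartiles 1.68 and 2.69%) and 1.06% in the other IL-12 cells, and the summed share was 2.16% in cluster 11 and 1.36% in the others. Cluster 10 had a median of 2.33% with quartiles of 0.798 and 5.61%, and cluster 8 a median of 2.11%. A share over 5% was found in 13 of the 837 members (1.55%) and in 4.07% of the other IL-12 cells. In cells with at least 2000 UMIs the summed share was 2.06% in cluster 11 and 1.33% in the others. The 11 mitochondrial genes in the table were all higher in cluster 11. Cytochrome b (mt-Cytb) was at 3147 CPM in cluster 11 and 1240 CPM in the other cells, a log2 ratio of 1.34, and the complex I subunits mt-Nd6 and mt-Nd5 had log2 ratios of 1.19 and 1.14. The 16S ribosomal RNA mt-Rnr2, at 9015 CPM in cluster 11 and 6041 CPM in the others, had a log2 ratio of 0.58, and mt-Co1 one of 0.27.

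**Figure D3:**
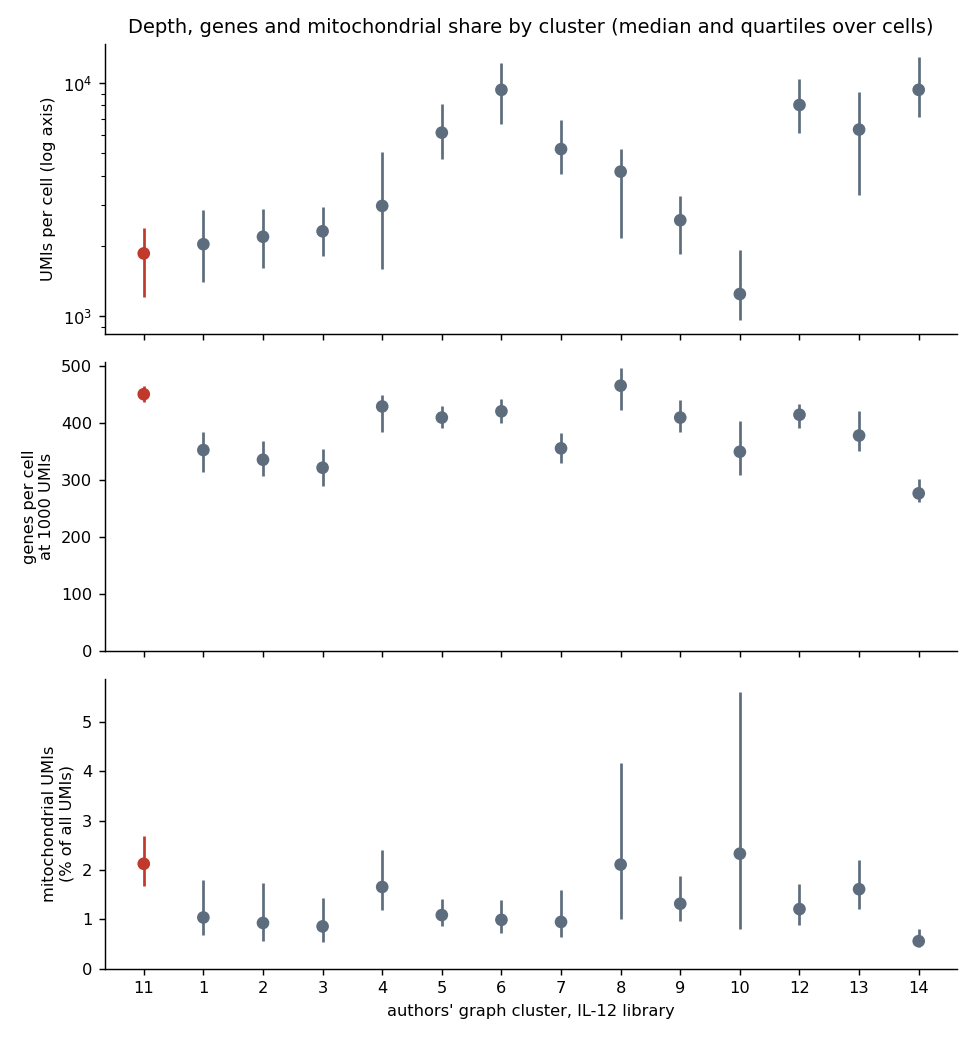
UMIs per cell (log axis), genes per cell after thinning to 1000 UMIs, and mitochondrial UMIs as a percentage of all UMIs, as medians with quartiles over the cells of each cluster of the IL-12 library. Cluster 11, in red at the left, has a low depth (1859 UMIs), a high number of genes at equal depth (451) and a mitochondrial share of 2.13%.

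Every gene of the table was set against the rest of the library. Of 3323 genes that met the detection minimum, 54 (1.63% of those compared) were at least 2-fold higher in cluster 11 and 22 (0.662%) at least 2-fold lower, with a median log2 ratio of 0.09 over all 3323. The same count over each other cluster against its own rest gave 1.14% of genes past 2-fold for cluster 12 and 13.8 to 47.8% for the other 12 clusters, beside 2.29% for cluster 11. With each cell's CPM averaged in place of summed UMIs, 81 genes were higher and 77 lower, and with the other clusters weighted equally 45 were higher and 35 lower. The genes just inside the threshold were Nin (log2 ratio 1.001) and Ftl1 (1.005) above and Hcar2 (-1.005) and Atf3 (-1.005) below, and those just outside were Akna (0.997), Fn1 (0.987), Lilrb4a (-0.9997) and H2-K2 (-0.987).

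Cluster 11 was also rarely an extreme. It had the highest level of the 14 clusters at 91 of the 3323 genes (2.74%) and the lowest at 2 genes (0.0602%). Cluster 12 was highest at 1 gene and lowest at none, and the neutrophil cluster 7 highest at 18 and lowest at 32. Cluster 8 was highest at 711 genes and cluster 14 lowest at 1235, but these clusters held only 67 and 117 cells.

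**Figure D4:**
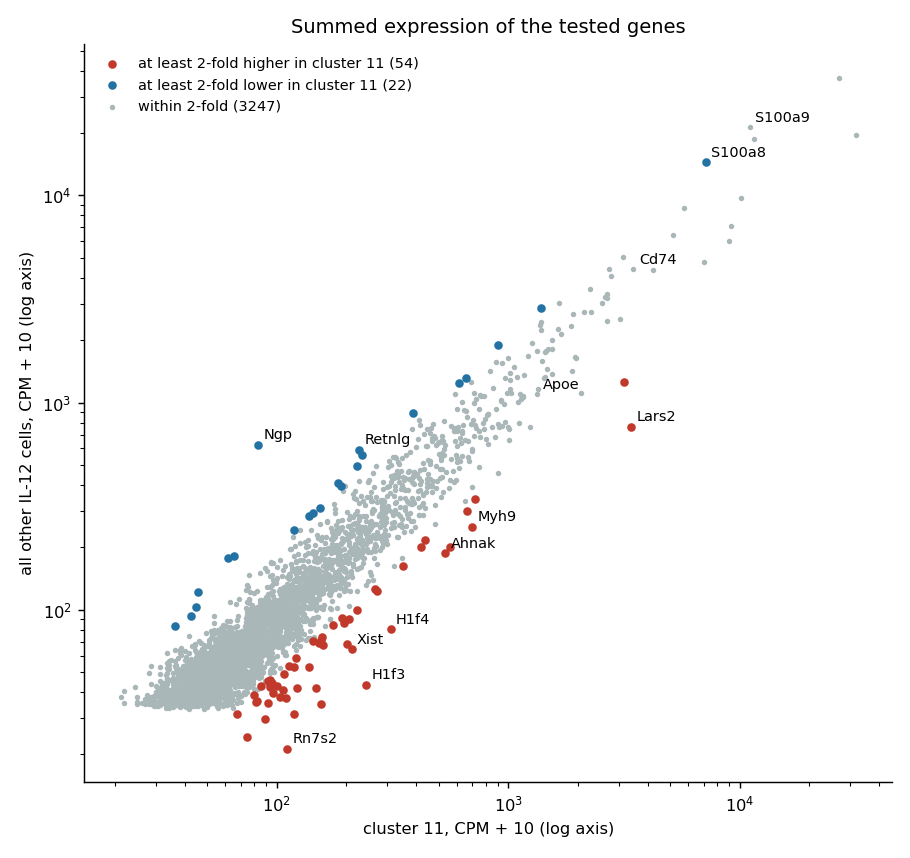
Summed expression of the 3323 genes compared, in cluster 11 (horizontal, CPM + 10, log axis) and in all other IL-12 cells (vertical, CPM + 10, log axis); red and blue points are at least 2-fold higher (54) or lower (22) in cluster 11. Most genes lie along the diagonal, Lars2 and the H1 histone genes to its right and Ngp and S100a8 to its left.

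The gene with the highest log2 ratio at a pseudocount of 10 CPM was H1f3 (2.48), which encodes a linker histone that binds DNA between nucleosomes and is made mainly during DNA replication. It had 372 UMIs in cluster 11, or 232 CPM, against 33.4 CPM in the other IL-12 cells, 6.95-fold higher (6.20 to 7.77). Rn7s2 had the larger fold without a pseudocount (8.91-fold, 7.45 to 10.6), and its log2 ratio was above that of H1f3 at a pseudocount of 1 CPM (3.05 for Rn7s2 and 2.76 for H1f3) and with the other clusters weighted equally (2.23 for Rn7s2 and 1.87 for H1f3). H1f4 was at 300.5 CPM in cluster 11 and 70.7 CPM in the others (log2 ratio 1.94), and H1f5 at 137 CPM in cluster 11 and 31.7 CPM in the others (1.82). All 3 were higher still in the T cell cluster 8, where H1f3 was at 414 CPM. The H1 genes together were at 896 CPM in cluster 11, 1399 CPM in cluster 8 and 243 CPM in the other IL-12 cells, in a family description chosen after the values were seen. The core histone families differed among themselves. The H2B genes of the table summed to 79.96 CPM in cluster 11 and 84.1 CPM in the other cells, and the H2A genes to 300.5 CPM in cluster 11 and 125 CPM in the others. Of 60-base stretches in the annotated transcript of H1f4, 30.6% (572 of 1871) also occurred in other genes, among them its paralogs. In H1f3 1.87% did (138 of 7366). The longest annotated transcript was 7425 bases for H1f3, 1930 for H1f4 and 743 for H1f5, so the low share for H1f3 depends on that length. The split between H1 genes is thus partly uncertain.

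The 3 leading H1 genes lie on chromosome 13, and their start-proximal sequences are shown because they share elements at matching distances. The lines give the 140 bases upstream of each annotated start, from RefSeq on GRCm38.p6, with capitals for AAACACA (the H1 box of histone promoters), CCAAT and TATAA.
H1f3, chr13:23554892-23555031, plus strand: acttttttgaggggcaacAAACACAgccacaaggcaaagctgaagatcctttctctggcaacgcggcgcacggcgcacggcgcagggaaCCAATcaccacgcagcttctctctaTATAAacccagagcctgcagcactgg
H1f4, chr13:23622559-23622698, minus strand: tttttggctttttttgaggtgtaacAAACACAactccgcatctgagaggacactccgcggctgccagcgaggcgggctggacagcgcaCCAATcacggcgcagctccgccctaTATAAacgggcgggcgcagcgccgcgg
H1f5, chr13:21780626-21780765, minus strand: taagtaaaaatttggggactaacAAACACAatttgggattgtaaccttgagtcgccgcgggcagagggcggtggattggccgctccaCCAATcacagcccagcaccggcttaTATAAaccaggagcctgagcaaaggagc
AAACACA began at -122, -115 and -117 in H1f3, H1f4 and H1f5, CCAAT at -51, -52 and -53, and TATAA at -26, -27 and -28, counted from the annotated start. Searched on both strands in the same window of 27025 promoters, AAACACA occurred in 3.21%, CCAAT in 24.2% and TATAA in 14.04%. Among the 7 H1 genes of the table AAACACA occurred in 4, which were these 3 and H1f2. H1f2 had a log2 ratio of 0.92 in cluster 11, just under the threshold. These matches describe the sequence and no factor was measured.

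Several leading genes were short structural RNAs. Rn7s1 and Rn7s2 encode the 7SL RNA of the signal recognition particle, and Rn7sk encodes 7SK, an RNA that holds back the elongation factor P-TEFb. Rn7s2 was at 101 CPM in cluster 11 and 11.4 CPM in the other cells (log2 ratio 2.38), Rn7s1 at 146 CPM in cluster 11 and 25.02 CPM in the others (2.15), and Rn7sk at 93.7 CPM in cluster 11 and 27.9 CPM in the others (1.45). The annotated copies of Rn7s1 and Rn7s2 were identical at all 300 annotated bases in GENCODE M21 (GRCm38), so their separate counts cannot be assigned. Mir6236, a gene annotated as a microRNA, was at 109 CPM in cluster 11 and 21.5 CPM in the other cells (log2 ratio 1.92).

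Lars2, the mitochondrial leucyl-tRNA synthetase encoded in the nucleus, had the most UMIs of the leading genes. It was at 3388 CPM in cluster 11 and 754 CPM in the other IL-12 cells, a log2 ratio of 2.15, and it had a UMI in 84.6% of members. Cluster 11 had its highest level of the 14 clusters, ahead of cluster 8 at 2002 CPM and cluster 13 at 1849 CPM.

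Nuclear noncoding RNAs and genes of large proteins were among the other leading genes. Xist, the noncoding RNA that coats the inactive X chromosome of females, was at 200.5 CPM in cluster 11 and 54.4 CPM in the other cells (log2 ratio 1.71). Neat1, the scaffold RNA of nuclear paraspeckles, was at 548 CPM in cluster 11 and 191 CPM in the others (1.48). Malat1, another nuclear RNA, was at 9134 CPM in cluster 11 and 7070 CPM in the others (0.37). Of the 3 nuclear-retained RNAs compared, 2 were at least 2-fold higher, where 1.63% of all genes compared were, a list too short for the count to be read. Its summed level was 9920 CPM in cluster 11 and 7330 CPM in the others. Cluster 11 ranked 7th of 14 by that sum, and cluster 4 was highest at 13523 CPM. Ahnak, a giant scaffold protein, was at 523.5 CPM in cluster 11 and 177 CPM in the others (1.51), and Myh9, the heavy chain of nonmuscle myosin IIA, at 690 CPM in cluster 11 and 242 CPM in the others (1.47). Actn4, an actin crosslinker, had a log2 ratio of 1.57, Tcf20, a transcriptional coregulator, one of 1.61, Hyou1, a chaperone of the endoplasmic reticulum, one of 1.58, and Tomm70a, an import receptor of the outer mitochondrial membrane, one of 1.39.

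Further leading genes had their highest levels in different clusters. Selenop, a selenium transport protein, was at 112 CPM in cluster 11, 142 CPM in cluster 4, 102 CPM in the macrophage cluster 6 and 32.0 CPM in all other cells. Hexa, a lysosomal hexosaminidase, was at 127 CPM in cluster 11 and 42.9 CPM in the others, and Ifi44, an interferon-induced gene, at 81.8 CPM in cluster 11 and 25.4 CPM in the others. Mki67, a marker of cycling cells, was at 99.95 CPM in cluster 11 and 27.3 CPM in the others (log2 ratio 1.56), below 362 CPM in cluster 8. It was the only 1 of 4 proliferation genes compared to pass 2-fold, and Top2a had a log2 ratio of 0.84.

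Transcript length went with the ratio. The longest annotated transcript had a median of 4925 bases among 51 non-mitochondrial genes at least 2-fold higher in cluster 11, 1499 bases among the 22 genes at least 2-fold lower, and 3097 bases among 3308 genes compared with a known length. The genes were put into 4 groups of nearly equal size by length. In the shortest (123 to 1930 bases) the median log2 ratio of cluster 11 to the other cells was -0.06, in the second 0.01, in the third 0.14 and in the longest (4750 to 27908 bases) 0.31. The longest group held 27 of the 51 higher genes and none of the 22 lower genes. The rise was not particular to cluster 11, since the CD4 T cell cluster 9 went from 0.12 in the shortest group to 0.44 in the longest. The CD8 T cell cluster 5 went from 0.52 in the shortest to 0.28 in the longest. In that longest group the median was 0.08 for cluster 12 and -0.12 for the macrophage cluster 6. Genes are not replicates, and this trend is a description.

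**Figure D5:**
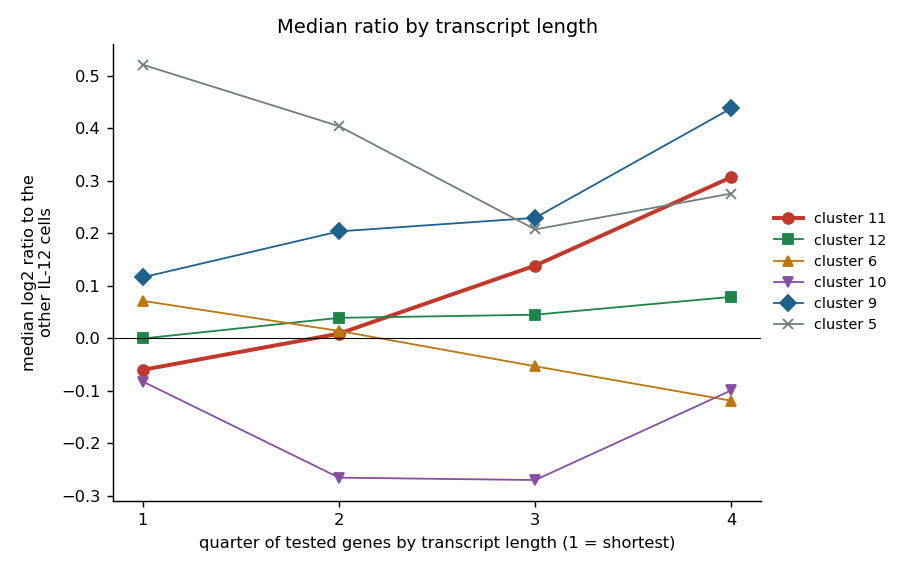
Median log2 ratio of each of 6 clusters to the other IL-12 cells (vertical) over 4 groups of the compared genes by length of the longest annotated transcript (horizontal, 1 for the shortest). Cluster 11, in red, lies at -0.06 for the shortest group and 0.31 for the longest.

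The lowest ratios included genes of neutrophils. Ngp, a granule protein of immature neutrophils, was at 73.1 CPM in cluster 11 and 615 CPM in the other cells, a log2 ratio of -2.91, and its highest level was 22171 CPM in the neutrophil cluster 14. Retnlg, a secreted resistin-like protein of neutrophils, was at 216 CPM in cluster 11 and 582 CPM in the others (-1.39), and Lcn2, an iron-scavenging protein of neutrophil granules, at 224 CPM in cluster 11 and 549 CPM in the others (-1.25). Lrg1 (-1.53), Ifitm6 (-1.47), Id1 (-1.41) and Prok2 (-1.21) were also highest in cluster 14. Cebpd (-1.19), Upp1 (-1.21) and the chemokine Cxcl1 (-1.16) completed the 10 lowest. S100a8, at 7128 CPM in cluster 11 and 14429 CPM in the others, had a log2 ratio of -1.02. None of the 10 had its lowest level of the 14 clusters in cluster 11, where they ranked 6th to 10th.

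The remaining lists were too short for their counts to be read against the 1.63% higher and 0.662% lower among all genes compared. Of 9 interferon response genes compared none was past 2-fold and Isg15, a ubiquitin-like antiviral protein, was at 1364 CPM in cluster 11 and 2361 CPM in the others (log2 ratio -0.79). Ifng was at 131 CPM in cluster 11 and 129 CPM in the others. Of 9 genes of the dissociation stress response, Atf3 alone was past 2-fold, and it was lower. None of 7 cell death genes, 10 housekeeping genes or 9 cytoskeleton genes compared was past 2-fold.

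A T cell receptor was recorded for 51 of the 837 members (6.09%, 4.57 to 7.93%), against 90.0% of cluster 5, 77.8% of cluster 12, 13.2% of the macrophage cluster 6 and none of 2606 cells in the neutrophil cluster 3. The 51 cells held 30 clones, the largest with 6 cells, and 37 of the cells belonged to clones also found in other clusters, 36 of them in cluster 5. The 51 members with a receptor had a median of 2741 UMIs, and Cd3e in 78.4% of cells, while the 786 without one had a median of 1815 UMIs and Cd3e in 48.1%. The macrophage list stood at 4433 CPM in members with a receptor and 5069 CPM in those without.

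The control members were too few for most genes. The 14 control members with an unshared barcode held 33289 UMIs, with a median of 1526 per cell. The T cell list stood at 2687 CPM in the IL-12 members and 1562 CPM (1167 to 2048) in these 14 control members. The macrophage list stood at 5013 CPM in the IL-12 members and 6248 CPM (5428 to 7158) in the 14. The neutrophil list was at 22300 CPM in the IL-12 members, 25053 CPM in the 14 and 78434 CPM in all 19 control members, so that the last value rested on the 5 shared barcodes. The dendritic cell-defining list was at 141 CPM in the IL-12 members and 150.2 CPM (48.8 to 350.5, 5 UMIs) in the 14. These lists differed in either direction, and no difference was tested. Of the 20 genes with the highest ratio in the IL-12 library, 8 were higher in these 14 cells than in the 4131 other control cells with unshared barcodes, and the interval of the ratio lay above 1 for 1 of them (Myh9) and below 1 for 1 (Neat1). Lars2 was at 2523 CPM in the 14 control members and 2507 CPM in the other control cells, and H1f3 had no UMI in the 14. In those other control cells Xist was at 181 CPM and Neat1 at 690 CPM, against 200.5 and 548 CPM in the IL-12 members. Neat1 alone of the 20 genes was higher in the other control cells than in the IL-12 members. H1f3, for instance, was at 18.9 CPM there and 232 CPM in the IL-12 members. Of the 10 genes with the lowest ratio, none was higher in the 14 cells and 5 had an interval wholly below 1.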

How the data were processed

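Per the labels, CD45+ cells were profiled with the 10x Genomics 5′ kit, 1 expression library per treatment. Reads had gone through STAR 2.6.1, Cell Ranger 2.1.0 and Partek with genome mm10, per the submitters' processing notes, which give no order or role for each. The authors deposited per-cell log2 values of 11407 genes, which the values themselves showed to be log2(CPM + 1). UMI counts were recovered by undoing the log and dividing by each cell's smallest non-zero value, whole within 0.1 for all but 13 of 13883686 values in the IL-12 library and 6 of 4251108 in the control library. Summed counts were scaled to total UMIs. Ratios used log2(CPM + 10), genes needed a UMI in 10% of cells of either group, and called means past 2-fold. Cell filters beyond the authors' were not applied. With no replicates, no test was run. Likeness, likelihood assignment (profiles from alternate cells) and 4-profile weights (at most 500 cells per other cluster, chosen after seeing the data) used Python 3.11.15, numpy 2.4.6 and scipy 1.17.1, tested on simulated data. Named genes were the 20 highest and 10 lowest ratios (receptor segment, immunoglobulin, ribosomal protein and mitochondrial genes unranked), each mitochondrial gene, up to 6 per list and a set of markers. The cluster and all lists were chosen with earlier results of these data known. A separate table of receptor-positive T cells holds no cell of cluster 11 and was not used.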

Additional observations from a re-analysis of the deposited data

How the results depend on the processing

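No paired analysis was possible because each treatment had 1 library and no test was run. The count of genes at least 2-fold higher in cluster 11 than in other IL-12 cells was 54, and became 85 with no filter on cells, 87 with a pseudocount of 1 CPM and 14 with one of 50 CPM. The count of lower genes was 22, and became 37, 35 and 10 under those 3 settings, 35 with the other clusters weighted equally and 77 with each cell's CPM averaged. Higher genes were 71.1% of those past 2-fold, and 56.2% with equal weights, 51.3% with averaged CPM and 58.3% with a pseudocount of 50 CPM. Of the 30 genes with the highest and lowest ratios, Mki67 (0.91), Neat1 (0.99) and Cxcl1 (-0.94) came under 2-fold with the other clusters weighted equally, and none changed direction there. Keeping only cells called DCs leaves the same 837 cells and tests nothing. The mitochondrial share of cluster 11, 2.16%, was 2.13% as a median, 3.15% of table UMIs and 2.06% in cells over 2000 UMIs, where other IL-12 cells had 1.06%, 1.93% and 1.33% in place of 1.36%. Among cells not called neutrophils the shares were 11.8% (IL-12) and 1.13% (control). The correlation with cluster 13 was 0.75 by Spearman and 0.64 over genes at 100 CPM or more, where that with cluster 6 was 0.87, and cluster 12 stayed nearest in all 5 settings. With control profiles 34.6% of members were nearest the average profile. Thinning to 1000 UMIs gave 33.4% with Cd3e, 63.2% with Apoe, 96.4% with S100a9, 59.8% with H2-Ab1, 12.6% with a dendritic cell-defining gene and 83.6% with all 3 lists, in place of 49.9%, 75.03%, 98.2%, 72.0%, 21.6% and 92.6%. Without the 5 shared barcodes the control members' neutrophil list was at 25053 CPM in place of 78434 CPM, and their macrophage list at 6248 CPM in place of 4703 CPM. The cause of these shifts was not tested. The 837 members hold 1600765 UMIs, so genes under 1.87 CPM could be missed.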
